A study of Mus musculus with 10 samples.

Results

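The DNA replication machinery was followed here as 47 genes, chosen by name from the gene symbols of a deposited expression table: the origin recognition complex, the licensing factors, the MCM helicase and its partners, the clamp and clamp loader, the replicative polymerases, RPA, the enzymes that join Okazaki fragments, ribonucleotide reductase, and the regulators Ccne1, Ccne2 and E2f1. All 47 were among the 24525 genes of the table, and all 47 were among the 13016 genes that were tested, those averaging 1 FPKM or more across the 10 libraries. FPKM counts fragments per length of transcript, scaled to the mapped fragments of the library, so levels of different genes can be set side by side per length.

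The groups were 5 colorectal tumours (CRC-tumor) and 5 samples of adjacent colon tissue (Adjacent-normal), 1 RNA sequencing library each, all from male C57BL/6 mice (C57BL/6N in the growth protocol) that had been given azoxymethane (AOM), a mutagen, once at 12.5 mg/kg, and then dextran sulfate sodium (DSS), a polymer that causes colitis when drunk, at 2% in 3 cycles of 5 days with 16 days of water after each. Mice entered at 7 weeks of age, and tissue was taken 10 weeks after AOM. The adjacent tissue thus had the same mutagen and colitis as the tumours, and no library from an untreated mouse was analysed here. The source label names 1 mouse for all 10 libraries while the protocol speaks of each mouse, so it is not settled which libraries share an animal. Every p-value below reflects sample-to-sample spread only, and that spread may be technical in part.

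A cell copies its genome once per division in ordered steps. In G1, the origin recognition complex marks origins, and Cdc6 and Cdt1 load the ring-shaped MCM2-7 helicase there, a step called licensing that geminin (Gmnn) blocks afterwards by binding Cdt1. In S phase, Cdc45 and the GINS complex join MCM2-7 to form the active helicase, primase and polymerase alpha start each strand, and the clamp PCNA, loaded by RFC, holds polymerases delta and epsilon to the DNA. Many of these genes are known targets of E2F transcription factors, and in normal colon dividing cells lie in the lower crypt.

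The E2F motif was found in a higher share of the members' promoters than of those of all tested genes, though most members with a sequence lacked it. RefSeq promoter sequences (GRCm38, 250 bases before to 50 after the RefSeq start) matched 38 of the 47 by symbol, all but Pole, Gmnn, Rfc2, Prim2, Ccne2, Mcm4, Gins1, Gins2 and Gins4. The E2F motif was searched as TTTCCCGC, TTTCGCGC, TTTGCCGC and TTTGGCGC on both strands. It was present in 16 of the 38 members (42.1%) and absent from 22, and was present in 4.52% of 10044 tested genes with a sequence and in 2.6% of all 27025 genes with one. The CCAAT box, searched as CCAAT on both strands, was present in 24 of the 38 (63.2%), against 42.8% of the tested genes, and the cell cycle homology region, searched as TTTGAA on both strands, in 5 (13.2%), against 14.4%. These are matches of letters, not measured sites. To show the shared motif, the 30 bases around the first match in each of the 16 members are given 5′ to 3′ on the gene's strand, with the match in capitals.

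Orc1, chr4:108579416-108579445, plus strand: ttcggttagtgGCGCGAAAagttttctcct
Orc3, chr4:34614965-34614994, minus strand: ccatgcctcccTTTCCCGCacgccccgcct
Cdc6, chr11:98908002-98908031, plus strand: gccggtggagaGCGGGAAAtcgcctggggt
Cdt1, chr8:122568035-122568064, plus strand: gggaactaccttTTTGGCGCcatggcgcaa
Mcm3, chr1:20820275-20820304, minus strand: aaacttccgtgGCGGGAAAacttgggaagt
Mcm5, chr8:75109345-75109374, plus strand: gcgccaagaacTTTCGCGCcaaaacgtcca
Mcm6, chr1:128359797-128359826, minus strand: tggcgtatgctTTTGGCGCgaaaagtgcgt
Mcm7, chr5:138172030-138172059, minus strand: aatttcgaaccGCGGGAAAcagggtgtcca
Mcm8, chr2:132816161-132816190, plus strand: gcagaagcgcgtcatagacGCGCCAAAaaa
Gins3, chr8:95633507-95633536, plus strand: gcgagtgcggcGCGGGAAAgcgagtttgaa
Rfc3, chr5:151651200-151651229, minus strand: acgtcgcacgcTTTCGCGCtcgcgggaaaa
Pola1, chrX:93632275-93632304, minus strand: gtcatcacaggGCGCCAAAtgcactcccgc
Pold1, chr7:44548766-44548795, minus strand: cacggcggcgtatcttgtgGCGGGAAAagc
Pold3, chr7:100121467-100121496, minus strand: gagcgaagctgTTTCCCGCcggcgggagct
Pole2, chr12:69228162-69228191, minus strand: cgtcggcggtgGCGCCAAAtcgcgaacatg
Lig1, chr7:13278841-13278870, plus strand: cgccaaagtgcGCGCGAAAtctgtgtggcg

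The first match lay within the first 50 transcribed bases in Cdt1, Mcm3, Mcm8, Pold1, Pold3, Pole2 and Lig1, and before the RefSeq start in the other 9. The GENCODE gene ranges, which give the gene positions printed here, start further upstream in some genes and include the match in Orc1, Cdc6, Mcm7, Gins3 and Rfc3. In longer view, the 250 bases before the start of 2 helicase genes with E2F matches and of 2 strongly changed genes without one, Mcm2 and Rrm2, are shown with E2F matches as runs of 8 or more capitals and CCAAT boxes (ATTGG on the other strand) as runs of 5. Matches on the 2 strands overlapped in Mcm5 and Mcm6.

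Mcm5, chr8:75109259-75109508, plus strand: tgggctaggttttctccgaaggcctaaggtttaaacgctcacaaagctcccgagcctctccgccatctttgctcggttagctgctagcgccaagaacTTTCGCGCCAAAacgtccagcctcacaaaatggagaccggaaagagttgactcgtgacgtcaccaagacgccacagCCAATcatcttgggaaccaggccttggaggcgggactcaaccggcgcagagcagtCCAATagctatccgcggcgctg
Mcm6, chr1:128359706-128359955, minus strand: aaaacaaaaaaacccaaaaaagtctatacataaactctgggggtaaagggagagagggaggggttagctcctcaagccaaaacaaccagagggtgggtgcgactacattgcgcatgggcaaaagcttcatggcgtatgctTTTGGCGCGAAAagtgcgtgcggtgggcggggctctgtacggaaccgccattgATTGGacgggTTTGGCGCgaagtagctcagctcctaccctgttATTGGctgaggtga
Mcm2, chr6:88898781-88899030, minus strand: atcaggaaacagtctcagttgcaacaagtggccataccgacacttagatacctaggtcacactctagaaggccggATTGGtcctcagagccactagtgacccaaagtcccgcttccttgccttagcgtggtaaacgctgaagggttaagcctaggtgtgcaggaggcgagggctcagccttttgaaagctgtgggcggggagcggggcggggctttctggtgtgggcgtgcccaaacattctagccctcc
Rrm2, chr12:24708004-24708253, plus strand: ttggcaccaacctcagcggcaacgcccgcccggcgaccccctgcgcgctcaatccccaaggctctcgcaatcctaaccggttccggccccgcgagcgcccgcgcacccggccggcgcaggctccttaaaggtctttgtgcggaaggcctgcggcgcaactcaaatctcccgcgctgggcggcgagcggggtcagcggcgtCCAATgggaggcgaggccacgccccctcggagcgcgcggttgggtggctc

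Every gene of the replication machinery had a higher mean level in tumours than in adjacent tissue. All 47 passed and rose by limma at an adjusted p of 0.05, where 76.5% of all tested genes passed and 57.2% rose, and the count has to be read against that. Their median log2 change was 1.08 (range 0.28 to 1.58), against 0.35 over all tested genes, and 14.1% of tested genes changed by more than this median. As a ratio of mean FPKM the members ran from 1.26-fold to 4.18-fold higher, with a median of 2.40-fold, and 36 of 47 reached 2-fold, against 22.2% of tested genes that rose with means at least 2-fold apart. In 45 of 47, every tumour lay above every adjacent sample, against 46.5% of tested genes. The groups overlapped in Orc1 and Gmnn. The counts per role below have to be read against these same shares.

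The scaling of the libraries moves all of these values. After subtraction of each library's median the members' median change was 0.75, and 44 of 47 rose and none fell, where 34.5% of all tested genes rose and 33.3% fell. Over all tested genes, 7442 rose and 2509 fell as deposited, against 4486 and 4329 with medians subtracted. With quantile normalization the median of the members was 0.66, and 41 rose and 1 fell, against 36.6% of all tested genes rising. The members whose call depends on the scaling are Orc1, Orc3, Gmnn, Orc5, Mcm8 and Gins3. In bulk tissue, a larger number of dividing cells and more of these RNAs per cell cannot be told apart.

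**Figure D1:**
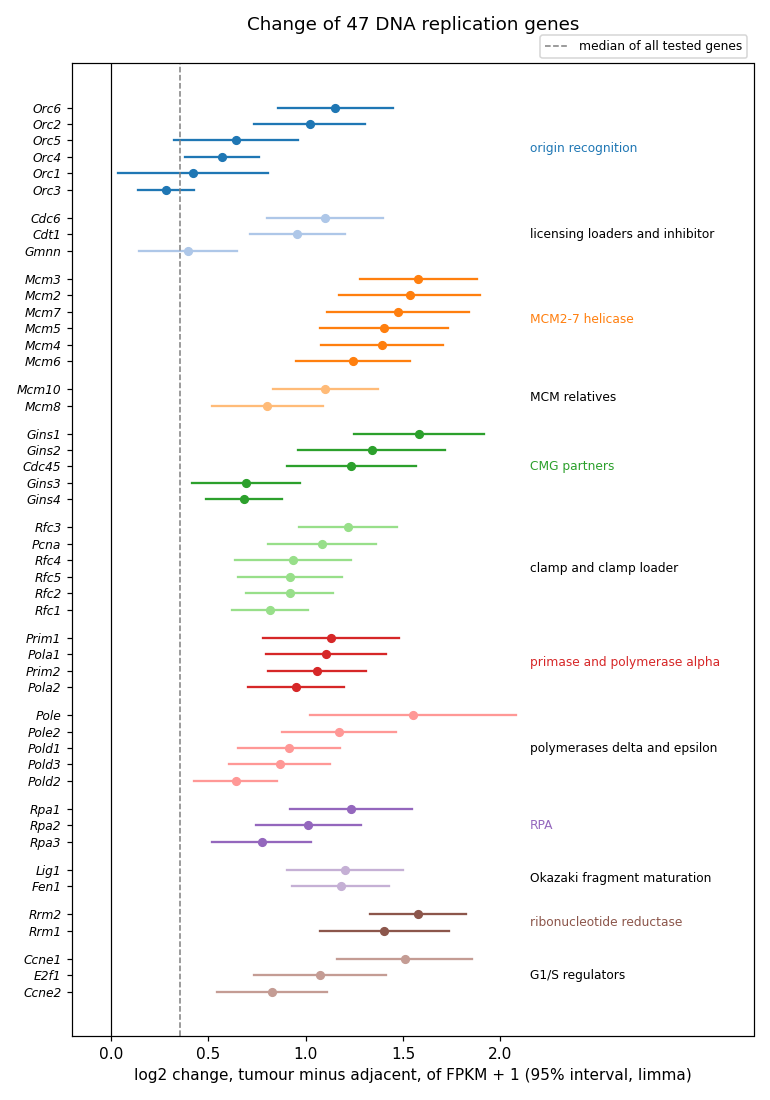
Log2 change of each of the 47 replication genes, tumour minus adjacent, on the log2(FPKM + 1) scale, by role; points are estimates, bars are 95% intervals from limma over 5 tumours and 5 adjacent samples, and the dashed line is the median of all tested genes (0.35). All points lie right of 0, the MCM2-7 genes lie between 1.24 and 1.58, and Orc3, Gmnn and Orc1 lie lowest.

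**Figure D2:**
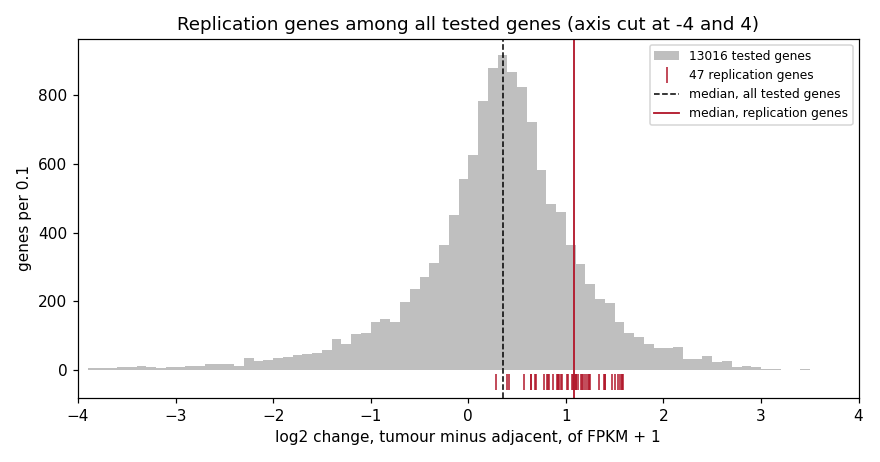
Histogram of the log2 change, tumour minus adjacent, of 13016 tested genes in bins of 0.1, with a tick under it for each of the 47 replication genes. The replication genes all lie right of 0, with their median at 1.08 and that of all tested genes at 0.35; genes beyond -4 and 4 are not drawn.

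The origin recognition complex, the platform on which licensing starts, had the lowest median log2 change of the role groups, 0.60 over its 6 subunits. Orc6, the smallest subunit, had 14.8, 11.8, 17.4, 15.2 and 17.1 FPKM in tumours 1 to 5, against 7.41, 5.82, 7.67, 4.76 and 6.07 FPKM in adjacent samples 1 to 5 (log2 change 1.15, SE 0.13, limma adjusted p = 3.80e-05). The tumours thus lay well above all adjacent samples, with adjacent sample 4 lowest. Vps35, on the opposite strand, overlaps 6.93% of the exonic bases of Orc6. Orc2, a core subunit, changed by 1.02 (SE 0.13), but 29.8% of its exonic bases overlap Nif3l1 on the opposite strand, and the library kit does not mark strand.

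Orc3, another core subunit, moved least of all 47 members. It had 6.11, 5.66, 6.29, 6.41 and 6.16 FPKM in tumours 1 to 5, against 4.92, 4.77, 4.97, 4.92 and 4.69 FPKM in adjacent samples 1 to 5, a narrow spread in both groups (log2 change 0.28, SE 0.06, limma adjusted p = 0.00227). The groups did not overlap, yet the means were only 1.26-fold apart. This rise is smaller than the median of all tested genes, and its direction flips under both other scalings. The change was -0.05 after subtraction of library medians (limma adjusted p = 0.512) and -0.17 after quantile normalization (limma adjusted p = 0.0445).

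Orc1, the subunit that varies most with the cell cycle in mammalian cells, had 5.65, 2.83, 4.27, 3.67 and 3.81 FPKM in tumours 1 to 5, against 3.86, 1.81, 2.55, 2.49 and 3.15 FPKM in adjacent samples 1 to 5 (log2 change 0.42, SE 0.17, limma adjusted p = 0.046). The groups overlapped, since adjacent sample 1 lay above tumours 2, 4 and 5. This call was the weakest of the 47: it was lost without any one of tumours 1, 3, 4 and 5 or adjacent samples 2, 3 and 4 (adjusted p from 0.0605 to 0.111). It passed at pseudocounts of 0.1 and 5 (limma adjusted p = 0.0468 at each). The change was 0.09 after median subtraction and -0.09 with quantile normalization. Gm12743, on the opposite strand, overlaps 10.8% of the exonic bases of Orc1. Orc4 and Orc5, which like Orc1 belong to the ATPase family of this complex, changed by 0.57 (SE 0.09) and 0.64 (SE 0.14). Orc5 did not pass with quantile normalization (0.26, adjusted p = 0.0792).

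On the log2(FPKM + 1) scale, both factors that load MCM2-7 rose about 1 log2 unit. That scale understates changes of low genes, and Cdc6 was the lower of the loaders. As a ratio of mean FPKM, Cdc6 was 2.81-fold and Cdt1 2.06-fold higher in tumours. The difference between these loaders was not tested. The inhibitor of Cdt1 rose less than Cdt1 did by the ratio test given below. Cdc6, the loading ATPase, had 4.49, 3.7, 5.36, 4.58 and 5.95 FPKM in tumours 1 to 5, against 2.28, 1.35, 1.79, 1.32 and 1.83 FPKM in adjacent samples 1 to 5 (log2 change 1.10, SE 0.14, limma adjusted p = 4.98e-05). Cdt1, which brings MCM2-7 to the origin, had 16.2, 13.4, 18.2, 16.4 and 20.1 FPKM in tumours 1 to 5, against 8.52, 7.24, 9.21, 7.11 and 8.82 FPKM in adjacent samples 1 to 5 (log2 change 0.96, SE 0.11, limma adjusted p = 3.67e-05). Both were clear of overlap, with tumour 5 highest and tumour 2 lowest.

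Gmnn, the inhibitor of Cdt1, had 19.2, 17.7, 25.2, 23 and 21.8 FPKM in tumours 1 to 5, against 18.9, 12.99, 16.2, 15.2 and 16.6 FPKM in adjacent samples 1 to 5 (log2 change 0.40, SE 0.11, limma adjusted p = 0.00829). Here adjacent sample 1 lay above tumour 2 and close to tumour 1, and the change did not pass after median subtraction, at 0.07 (limma adjusted p = 0.54), nor after quantile normalization, at 0.16 (limma adjusted p = 0.177). The log2 ratio of Cdt1 over Gmnn within a library, which does not depend on library scaling apart from the pseudocount of 1, was -0.32 ± 0.15 in tumours and -0.88 ± 0.14 in adjacent samples (SD, n = 5 each), a difference of 0.56 (exact two-sided permutation p = 0.00794, adjusted p = 0.0132 over 5 ratios). The 2 ranges did not overlap, at -0.46 to -0.12 in tumours and -1.06 to -0.75 in adjacent samples, and 0.00794 is the smallest p that 5 against 5 samples can give.

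The MCM2-7 helicase genes had the highest median log2 change, 1.44, of the role groups with 3 or more members. All 6 rose, with log2 changes of 1.24 to 1.58, and did so under each scaling tried. Among all tested genes the shares that rose were 57.2% as deposited, 34.5% with medians subtracted and 36.6% with quantile normalization. Mcm7 (chromosome 5, 138164583 to 138172422, GRCm38) was the most abundant, with 56.9, 39.6, 67.6, 55.9 and 69.2 FPKM in tumours 1 to 5, against 23.98, 16.2, 21.6, 16.1 and 22.6 FPKM in adjacent samples 1 to 5 (log2 change 1.47, SE 0.16, limma adjusted p = 3.25e-05). Mcm3 (chromosome 1, 20802968 to 20820312) had the largest change of the 6 at a pseudocount of 1, with 33.9, 27.3, 41.4, 34.96 and 38.5 FPKM in tumours 1 to 5, against 14.3, 9.65, 11.4, 8.84 and 11.7 FPKM in adjacent samples 1 to 5 (log2 change 1.58, SE 0.14, limma adjusted p = 1.56e-05). The lowest tumour, tumour 2, still lay well above the highest adjacent sample in both genes.

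Mcm6 had the smallest change of the hexamer, with 37.9, 34.6, 53.9, 39.8 and 49.2 FPKM in tumours 1 to 5, against 20.1, 15.6, 19.2, 14.5 and 18.1 FPKM in adjacent samples 1 to 5 (log2 change 1.24, SE 0.13, limma adjusted p = 2.70e-05). Mcm2, Mcm4 and Mcm5 changed by 1.53 (SE 0.16), 1.39 (SE 0.14) and 1.40 (SE 0.15). By mean, Mcm7 was the highest and Mcm4 the lowest subunit in both groups. Within a library the highest of the 6 was 1.91 to 2.24 times the lowest in tumours and 1.96 to 2.27 times in adjacent samples. The summed level of the 6 was 171 to 274 FPKM in tumours and 66.5 to 98.8 FPKM in adjacent samples. Of Mcm7's exonic bases, 7.25% overlap Ap4m1 and 1.45% overlap Cops6, both on the opposite strand.

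Of the MCM relatives, Mcm10, which helps to activate the helicase, had 7.92, 7.72, 11.5, 8.84 and 10.6 FPKM in tumours 1 to 5, against 4.48, 3.78, 4.1, 3.3 and 3.25 FPKM in adjacent samples 1 to 5 (log2 change 1.10, SE 0.12, limma adjusted p = 3.17e-05). Mcm8, which acts with Mcm9 in recombination repair, was among the least abundant members, with 3.36, 2.22, 4.1, 3.03 and 3.85 FPKM in tumours 1 to 5, against 1.72, 1.32, 1.35, 1.4 and 1.44 FPKM in adjacent samples 1 to 5 (log2 change 0.80, SE 0.13, limma adjusted p = 0.000231). Tumours lay above adjacent samples in both, and Mcm8 did not pass with quantile normalization (0.30, adjusted p = 0.0661).

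**Figure D3:**
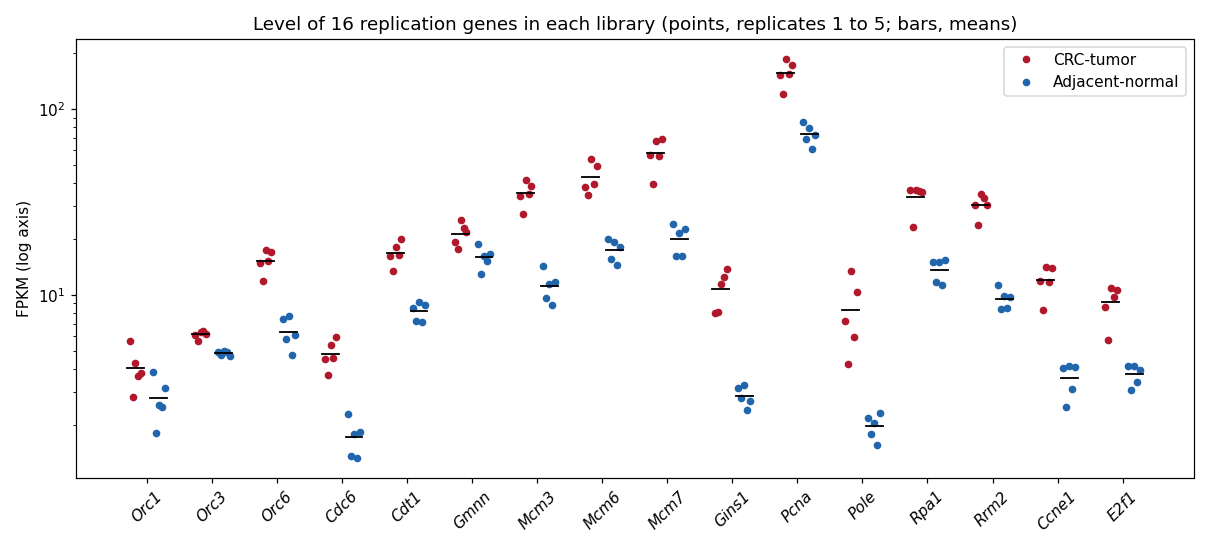
FPKM (log axis) of 16 replication genes in each library, with tumours 1 to 5 at left and adjacent samples 1 to 5 at right of each gene, and bars for group means. The groups overlap only in Orc1 and Gmnn among these 16, and Pcna lies highest, at 61.3 FPKM or more in each library.

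The partners that turn MCM2-7 into the active helicase ranged widely, from 0.68 to 1.58. Gins1 had 8.01, 8.07, 11.4, 12.6 and 13.8 FPKM in tumours 1 to 5, against 3.17, 2.79, 3.27, 2.39 and 2.69 FPKM in adjacent samples 1 to 5 (log2 change 1.58, SE 0.15, limma adjusted p = 1.99e-05). Its estimate was the highest of the 47 at a pseudocount of 1, level with Mcm3 and Rrm2, both also at 1.58. Pole led with a pseudocount of 0.1 (1.91), Mcm7 with a pseudocount of 5 (1.32) and Mcm3 with quantile normalization (1.35). For Gins1 the tumours formed a low pair, 1 and 2, near 8 FPKM, with the other 3 above 11 FPKM, all clear of adjacent tissue. Cdc45 changed by 1.23 (SE 0.15) and Gins2 by 1.34 (SE 0.17). For Gins2, 67.3% of the exonic bases overlap Gse1 on the opposite strand. Gse1 itself fell by 0.36 on the log2 scale as deposited (limma adjusted p = 0.0032). Without strand, reads of the 2 genes in the overlap cannot be told apart, and the effect on either value was not tested.

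Gins4 had 16.6, 15.9, 18.1, 17.3 and 18.7 FPKM in tumours 1 to 5, against 11.1, 9.2, 10.3, 9.27 and 12.5 FPKM in adjacent samples 1 to 5 (log2 change 0.68, SE 0.09, limma adjusted p = 6.42e-05). Gins3 had 2.48, 2.81, 3.31, 2.18 and 3.66 FPKM in tumours 1 to 5, against 1.67, 1.2, 1.65, 1.17 and 1.27 FPKM in adjacent samples 1 to 5 (log2 change 0.69, SE 0.13, limma adjusted p = 0.000525), and did not pass with quantile normalization (0.20, adjusted p = 0.144). Both had every tumour above every adjacent sample. Their log2 changes were close, but as a ratio of mean FPKM Gins3 was 2.07-fold and Gins4 1.66-fold higher in tumours. The log2(FPKM + 1) scale understates changes of low genes, and Gins3 was low in both groups. By mean, Gins2 was the highest GINS gene in tumours and Gins4 in adjacent samples.

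Pcna, the sliding clamp (chromosome 2, 132249162 to 132253314), was the most abundant member, with 152, 121, 187, 155 and 174 FPKM in tumours 1 to 5, against 85.9, 69, 79.3, 61.3 and 72.99 FPKM in adjacent samples 1 to 5 (log2 change 1.08, SE 0.13, limma adjusted p = 3.78e-05). Its lowest tumour, tumour 2, was still well above the highest adjacent sample. Pcna has 2 annotated processed pseudogenes that are not in the table, so its level may hold reads shared with them. Among the loader subunits, Rfc3 had 29.4, 19.3, 27.8, 27.3 and 29.5 FPKM in tumours 1 to 5, against 11.96, 9.67, 10.8, 10.2 and 11.4 FPKM in adjacent samples 1 to 5 (log2 change 1.22, SE 0.11, limma adjusted p = 1.92e-05), with tumour 2 set apart from the other 4 tumours. Rfc1, the large subunit, changed least, with 20.8, 16.8, 19.6, 19.1 and 21.1 FPKM in tumours 1 to 5, against 10.9, 9.49, 11.5, 9.42 and 11.9 FPKM in adjacent samples 1 to 5 (log2 change 0.82, SE 0.09, limma adjusted p = 2.83e-05). Rfc2, Rfc4 and Rfc5 changed by 0.92 (SE 0.10), 0.93 (SE 0.13) and 0.92 (SE 0.12). On the opposite strand, Lat2 overlaps 15.1% of the exonic bases of Rfc2, Eif4a2 12.7% of those of Rfc4 and Wsb2 10.7% of those of Rfc5. All 6 genes of clamp and loader rose under each scaling, with no overlap between groups. The shares of all tested genes that rose were 57.2% as deposited, 34.5% with medians subtracted and 36.6% with quantile normalization. In 46.5% of tested genes every tumour lay above every adjacent sample.

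The 4 genes of primase and polymerase alpha, which lay down the RNA-DNA primer, changed by 0.95 to 1.13 on the log2(FPKM + 1) scale. As a ratio of mean FPKM they ran from 2.07-fold (Pola2) to 2.69-fold (Pola1) higher in tumours. Differences among them were not tested. Prim1, the catalytic primase subunit, had 14.1, 9.3, 17.7, 16.1 and 15.1 FPKM in tumours 1 to 5, against 6.91, 5.37, 6.56, 4.71 and 6.35 FPKM in adjacent samples 1 to 5 (log2 change 1.13, SE 0.16, limma adjusted p = 9.90e-05). Pola2, the accessory subunit of the polymerase, was the most abundant and the least changed of the 4, with 13.7, 11.4, 16.6, 15.2 and 16.6 FPKM in tumours 1 to 5, against 8.43, 6.61, 7.44, 6.32 and 6.74 FPKM in adjacent samples 1 to 5 (log2 change 0.95, SE 0.11, limma adjusted p = 4.08e-05). Tumours were higher throughout. Pola1, the catalytic subunit of polymerase alpha and the only member on the X chromosome, and Prim2, the large primase subunit, changed by 1.10 (SE 0.14) and 1.06 (SE 0.11).

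The catalytic subunits of the 2 polymerases that copy most of the genome differed in size of change on the log2(FPKM + 1) scale. Pole, of the leading-strand polymerase epsilon (chromosome 5, 110286306 to 110337474), had 7.23, 4.26, 13.4, 5.96 and 10.4 FPKM in tumours 1 to 5, against 2.18, 1.79, 2.03, 1.55 and 2.32 FPKM in adjacent samples 1 to 5 (log2 change 1.55, SE 0.24, limma adjusted p = 0.000181). It had the largest ratio of means of the 47, 4.18-fold, and its tumours were far apart: tumour 3 had more than tumours 2 and 4 together. Pold1, of the lagging-strand polymerase delta, had 12.1, 9.24, 14.5, 12.4 and 13.2 FPKM in tumours 1 to 5, against 6.69, 5.1, 6.91, 5.54 and 5.9 FPKM in adjacent samples 1 to 5 (log2 change 0.91, SE 0.12, limma adjusted p = 6.43e-05). The tumours of Pold1 lay closer together, between 9.24 and 14.5 FPKM.

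The log2 ratio of Pole over Pold1 was -0.60 ± 0.38 in tumours and -1.24 ± 0.14 in adjacent samples (SD, n = 5 each), a difference of 0.64 (exact two-sided permutation p = 0.00794, adjusted p = 0.0132 over 5 ratios). Its size depends on the pseudocount, since Pole was near 2 FPKM in adjacent tissue: by the same exact permutation test the difference was 0.90 with a pseudocount of 0.1 (adjusted p = 0.0132) and 0.24 with a pseudocount of 5 (adjusted p = 0.1455). Of the accessory subunits, Pole2 changed by 1.17 (SE 0.13). Pold3, the most abundant of this group in tumours, had 34.8, 21.4, 30.5, 30.7 and 32.2 FPKM in tumours 1 to 5, against 17.1, 15.1, 17.03, 14.8 and 15.1 FPKM in adjacent samples 1 to 5 (log2 change 0.87, SE 0.12, limma adjusted p = 8.25e-05). Pold2 changed least, with 26.4, 27.9, 27.98, 24.2 and 29.03 FPKM in tumours 1 to 5, against 20.9, 15.2, 18.1, 17.1 and 14.5 FPKM in adjacent samples 1 to 5 (log2 change 0.64, SE 0.10, limma adjusted p = 0.000163), and even tumour 4, the lowest, lay above adjacent sample 1, the highest.

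RPA, the trimer that coats single-stranded DNA, rose in all 3 subunits. Rpa1, the large subunit, had 36.9, 23.1, 36.8, 36.2 and 35.8 FPKM in tumours 1 to 5, against 15.01, 11.8, 14.9, 11.3 and 15.5 FPKM in adjacent samples 1 to 5 (log2 change 1.23, SE 0.14, limma adjusted p = 3.75e-05). Apart from tumour 2, the tumours lay between 35.8 and 36.9 FPKM. Rpa2 changed by 1.01 (SE 0.12). Rpa3, the small subunit, had 32.1, 24.01, 35.1, 31.7 and 31.2 FPKM in tumours 1 to 5, against 18.97, 14.2, 19.99, 16.5 and 18.4 FPKM in adjacent samples 1 to 5 (log2 change 0.77, SE 0.11, limma adjusted p = 0.000144). By mean, Rpa1 was the highest of the 3 in tumours and Rpa3 in adjacent samples, and Rpa2 was the lowest in both.

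The enzymes that finish Okazaki fragments changed alike, and both rose without overlap between groups. The ligase Lig1 had 23.8, 18.7, 32.02, 25.1 and 31.2 FPKM in tumours 1 to 5, against 11.2, 10.5, 11.2, 9.08 and 11.3 FPKM in adjacent samples 1 to 5 (log2 change 1.2, SE 0.14, limma adjusted p = 3.36e-05). The flap nuclease Fen1 had 22.4, 18.6, 25.4, 23.4 and 27.03 FPKM in tumours 1 to 5, against 11.8, 8.74, 10.3, 8.6 and 9.25 FPKM in adjacent samples 1 to 5 (log2 change 1.18, SE 0.11, limma adjusted p = 1.98e-05). Their levels were nearly equal within each library, the higher at most 1.26 times the lower in tumours and 1.22 times in adjacent samples. An antisense transcript, Gm10143, overlaps 78.8% of the exonic bases of Fen1, and without strand its reads and those of Fen1 cannot be told apart. Tmem258, also on the opposite strand, overlaps 5.37%.

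Ribonucleotide reductase makes the deoxynucleotides for replication from a large subunit, Rrm1, and a small subunit, Rrm2, which in cycling cells is made mainly in S phase. Rrm2 had 30.5, 23.7, 34.98, 33.2 and 30.4 FPKM in tumours 1 to 5, against 11.3, 8.38, 9.86, 8.45 and 9.78 FPKM in adjacent samples 1 to 5 (log2 change 1.58, SE 0.11, limma adjusted p = 9.63e-06), the lowest adjusted p of the 47 members. Rrm1 had 37.6, 25.9, 43.5, 34.7 and 43.7 FPKM in tumours 1 to 5, against 15.5, 11.8, 13.9, 10.6 and 14.7 FPKM in adjacent samples 1 to 5 (log2 change 1.40, SE 0.15, limma adjusted p = 2.66e-05). Both subunits were higher in every tumour. The log2 ratio of Rrm2 over Rrm1 was -0.26 ± 0.18 in tumours and -0.43 ± 0.09 in adjacent samples (SD, n = 5 each), and the difference of 0.17 did not pass (exact two-sided permutation p = 0.0952, adjusted p = 0.119 over 5 ratios). It passed without tumour 5, at 0.24 (adjusted p = 0.0298).

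Among the G1/S regulators, the 2 cyclin E genes, whose products activate Cdk2 at the start of S phase, changed unequally. Ccne1 had 11.9, 8.27, 14.2, 11.8 and 14 FPKM in tumours 1 to 5, against 4.06, 2.48, 4.12, 3.11 and 4.07 FPKM in adjacent samples 1 to 5 (log2 change 1.51, SE 0.16, limma adjusted p = 2.52e-05). Ccne2 had 4, 3.23, 4.88, 3.99 and 4.94 FPKM in tumours 1 to 5, against 2.4, 1.46, 1.92, 1.68 and 2.23 FPKM in adjacent samples 1 to 5 (log2 change 0.82, SE 0.13, limma adjusted p = 0.000186). Neither overlapped between groups, and Ccne1 was above Ccne2 in every library. The log2 ratio of Ccne1 over Ccne2 was 1.31 ± 0.10 in tumours and 0.63 ± 0.12 in adjacent samples (SD, n = 5 each), a difference of 0.68 (exact two-sided permutation p = 0.00794, adjusted p = 0.0132 over 5 ratios). Of the exonic bases of Ccne2, 17.4% overlap Ints8 on the opposite strand.

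E2f1, the activator of many of these genes, had 8.64, 5.74, 10.9, 9.8 and 10.7 FPKM in tumours 1 to 5, against 4.13, 3.08, 4.15, 3.41 and 3.93 FPKM in adjacent samples 1 to 5 (log2 change 1.08, SE 0.15, limma adjusted p = 0.000112). Tumour 2, at 5.74 FPKM, lay nearest to adjacent tissue. The log2 ratio of Orc1 over Orc3, the last of the 5 ratios tested, was -0.52 ± 0.27 in tumours and -0.66 ± 0.29 in adjacent samples, with a difference of 0.14 that did not pass (exact two-sided permutation p = 0.46, adjusted p = 0.46). The 16 members with an E2F match in the promoter window had a median log2 change of 1.10 (range 0.28 to 1.58) and the 22 without one had 1.08 (range 0.57 to 1.58), so both sets spanned nearly the same range and the member that moved least, Orc3, was among those with a match.

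**Figure D4:**
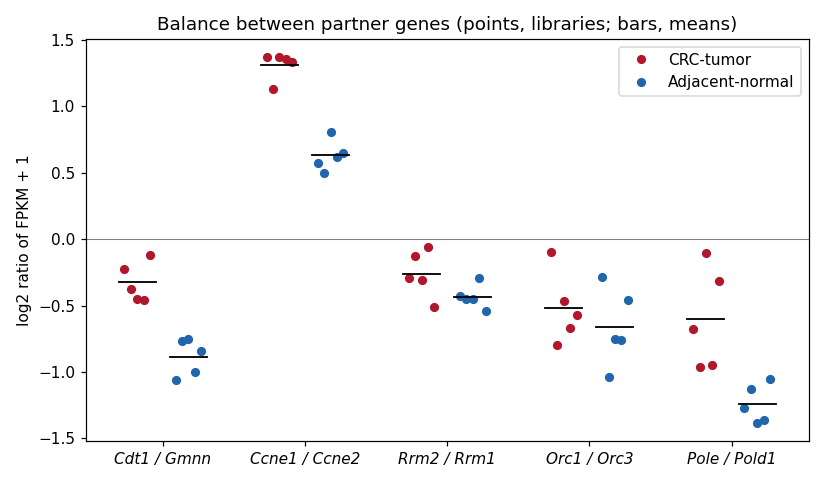
Log2 ratio of FPKM + 1 between partner genes in each library, with tumours at left and adjacent samples at right of each pair of genes, and bars for group means. Cdt1 over Gmnn, Ccne1 over Ccne2 and Pole over Pold1 do not overlap between groups, while Rrm2 over Rrm1 and Orc1 over Orc3 do.

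Among the tumours, tumour 2 stood lowest for most of the machinery. It was the lowest of the 5 tumours for 44 of 47 members, the exceptions being Gins1, Gins3 and Pold2, while it was the lowest for 62.4% of all genes that rose and 45.7% of all tested genes. The highest tumour was tumour 3 for 22 members and tumour 5 for 20, together 89.4% of the members, against 52.8% of all genes that rose. Among adjacent samples, sample 2 or 4 was the lowest for 89.4% of the members, close to the 85.8% of all genes that rose. The summed level of the 47 genes was 1000.4, 784.9, 1182, 1023 and 1149 FPKM in tumours 1 to 5, against 520.8, 399.1, 488.0, 391.5 and 466.6 FPKM in adjacent samples 1 to 5. The lowest tumour thus lay above the highest adjacent sample. Without tumour 2, all 47 members rose and their median log2 change was 1.17.

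**Figure D5:**
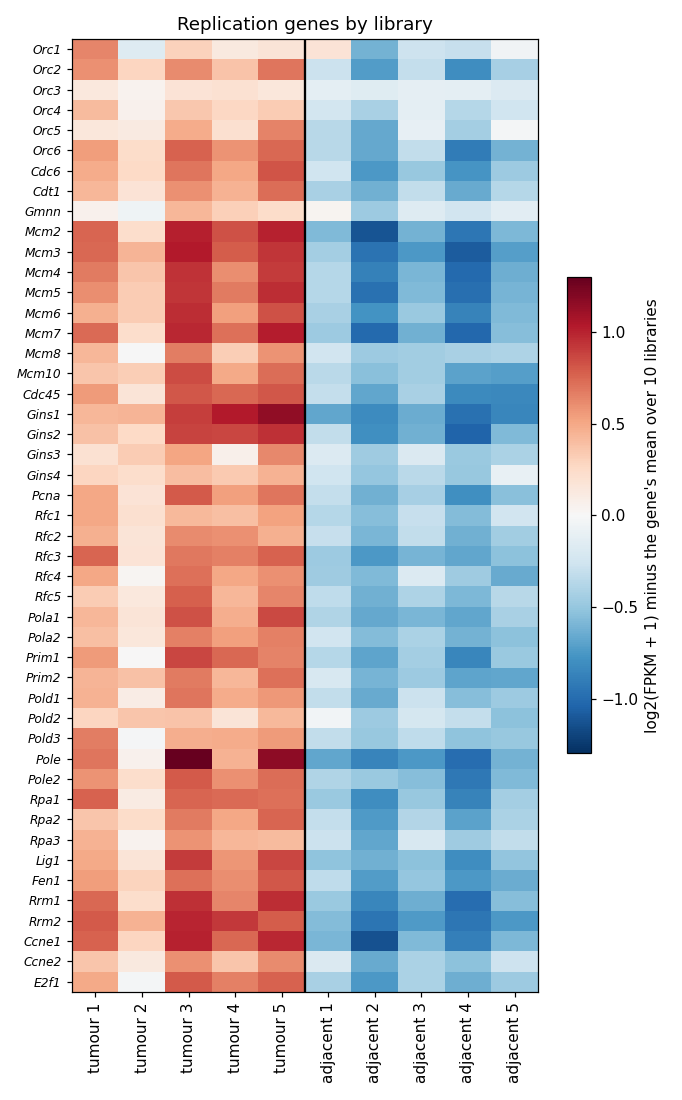
Log2(FPKM + 1) of each replication gene in each library minus the gene's mean over the 10 libraries, with tumours 1 to 5 at left and adjacent samples 1 to 5 at right. Tumour 2 is the palest tumour column, tumours 3 and 5 are the darkest, and the rows of Orc3, Gmnn and Orc1 show the least contrast.

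Markers of several cell types moved with the groups, and some of them set tumour 2 apart. Of all tested genes 57.2% rose and 19.3% fell, and the marker counts have to be read against that. The epithelial markers (Epcam, Cdh1, keratins, Vil1 and claudins) summed to 4223 to 6532 FPKM in tumours and 7505 to 9211 FPKM in adjacent samples, with tumour 2 the highest tumour. Of these 7 of 8 fell and Krt18 rose, by 0.36 as deposited, 0.02 after median subtraction and 0.57 after quantile normalization. The colonocyte and goblet markers all fell, 8 of 8, and summed to 1630 FPKM in tumour 2, 1083 FPKM in tumour 4 and 254 to 317 FPKM in the other 3 tumours, against 5855 to 9411 FPKM in adjacent samples. All 6 fibroblast markers rose, with sums of 571 to 964 FPKM in tumours and 74.4 to 191 FPKM in adjacent samples, and tumour 2 was the highest. All 5 endothelial markers rose, with sums of 41.3 to 61.2 FPKM in tumours and 10.2 to 22.6 FPKM in adjacent samples, and tumour 2 was again the highest. All 6 myeloid markers rose, with sums of 133 to 267 FPKM in tumours and 15.1 to 90.1 FPKM in adjacent samples. By sum, tumour 5 was the highest and tumour 2, at 153 FPKM, the second lowest tumour. S100a8, at 51.8 FPKM in tumour 2 and 187 FPKM in tumour 5, weighs heavily in these sums. Tumour 2 was the highest tumour for Csf1r (46.97 FPKM), Adgre1 (12.89 FPKM) and Cd68 (25.04 FPKM). It was not the highest for Itgam, Csf3r or S100a8. Of the smooth muscle markers 3 of 5 rose, near the share of all tested genes, and 2 did after median subtraction. Their sums were 120.3 to 201 FPKM in tumours and 37.8 to 109.9 FPKM in adjacent samples, highest in tumour 4.

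Lymphocytes can also divide. The 6 B cell markers summed to 1.74 to 12.6 FPKM in tumours and 5.94 to 47.5 FPKM in adjacent samples, with tumour 2 the highest tumour. Of the 3 past the filter 2 fell, where 19.3% of all tested genes did. Pax5 was listed at 0 in 2 tumours and 1 adjacent sample, the only marker listed at 0 in any library. The 5 T cell markers summed to 9.64 to 26.4 FPKM in tumours and 5.87 to 10.3 FPKM in adjacent samples, again highest in tumour 2, and only Lck rose. How much each cell type contributed to the replication genes was not tested.

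The other genes of DNA replication went the same way for the most part. Of 32 further replication factors, 29 rose and 0 fell (median change 0.83 on the log2 scale), where 57.2% of all tested genes rose. After median subtraction 26 rose, against 34.5% of all tested genes, and 2 fell, Mcm9 and Mcmbp. The largest rise was that of Top2a, which untangles copied DNA, at 1.66 (SE 0.17), followed by Chaf1b, of the histone chaperone that follows the fork, at 1.47 (SE 0.18). Mcm9, the partner of Mcm8, the MCM-binding protein gene Mcmbp and the small polymerase delta subunit Pold4 did not pass, with log2 changes of 0.11 (SE 0.08), 0.07 (SE 0.07) and 0.14 (SE 0.12). A p above the threshold does not show that these genes stayed level.

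Of 10 genes of deoxynucleotide supply, 9 rose and 0 fell (median change 0.96), and 6 rose after median subtraction. The shares of all tested genes that rose were 57.2% and 34.5%. Dctd, a deaminase on the path to thymidylate, rose most, by 1.48 (SE 0.16). Samhd1, which breaks down deoxynucleotides, averaged 24.1 ± 7.54 FPKM in tumours and 27.1 ± 5.02 FPKM in adjacent samples (SD, n = 5 each). Its log2 change of -0.20 (SE 0.21) did not pass. Tyms, thymidylate synthase, rose by 0.30 (SE 0.08), but was at -0.03 with medians subtracted.

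Of 20 further genes of S phase control 12 rose, near the 57.2% of all tested genes that did, and 3 fell. Their median change, 0.39, was near that of all tested genes. After median subtraction 9 rose and 7 fell, where 34.5% of all tested genes rose and 33.3% fell. The 3 that fell, near the 19.3% of all tested genes that did, were Cdkn1a, the CDK inhibitor p21, by 0.92 (SE 0.14), Cdkn1b, the CDK inhibitor p27, by 0.52 (SE 0.07), and Rb1, the retinoblastoma protein that holds back E2F, by 0.44 (SE 0.07). Of the other retinoblastoma family genes, Rbl1 rose by 0.39 (SE 0.08) and Rbl2 did not pass, at -0.05 (SE 0.06). Fbxw7, which marks cyclin E for breakdown, rose by 0.40 (SE 0.09). With medians subtracted Rbl1 and Fbxw7 did not pass, both at 0.06, and Rbl2 fell, at -0.38 (limma adjusted p = 0.000693). Cdkn2a, another CDK inhibitor locus, rose most, by 1.74 (SE 0.45), with 2.25, 7.05, 7.09, 10.8 and 17.1 FPKM in tumours 1 to 5, against 2.33, 0.67, 1.75, 0.58 and 3.48 FPKM in adjacent samples 1 to 5, so the groups overlapped. Of the E2F family, E2f3, E2f4, E2f6, E2f7 and E2f8 rose and E2f2 and E2f5 did not pass. With medians subtracted E2f4 was at -0.04 and E2f5 fell, at -0.32 (limma adjusted p = 0.00472). E2f8 did not pass with quantile normalization (0.25, limma adjusted p = 0.118). E2f7 averaged 0.83 FPKM in adjacent samples and 2.67 FPKM in tumours, so it passed the filter at 1 FPKM through its tumours.

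The 6 proliferation genes Mki67, Top2a, Ccnb1, Cdk1, Bub1 and Plk1 all rose (median change 1.33), also after median subtraction. Of all tested genes 57.2% rose, and 34.5% after median subtraction. Mki67 had 39.5, 29.5, 48.9, 38.4 and 43.7 FPKM in tumours 1 to 5, against 24.02, 19.1, 19.3, 19.3 and 17.6 FPKM in adjacent samples 1 to 5, so that tumour 2 was the lowest tumour here too. Its log2 change of 0.96 (SE 0.13) was below the median of the replication members.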

How the data were processed

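Polyadenylated RNA was sequenced from 5 tumours and 5 adjacent samples, 1 library each, prepared with the TruSeq RNA v2 kit per the labels' protocols. The deposited table gives FPKM per gene symbol as computed by the authors; per the submitters' processing notes, tools included Cufflinks 2.2.1, Salmon 0.8.2, TopHat2 2.1.0 and RSEM 1.2.15, with the build mm10; which of them made the table is not stated. One line of text in place of values was left out (24525 genes kept). Totals were 462009 to 484712 FPKM per library and no libraries were identical. Depth is not stated; the spacing of low values among single-transcript genes gave roughly 20700000 to 26000000 fragments, with 62.5% to 70.5% of 91 to 117 values per library within 0.2 of a whole number, too few to recover counts. No counting interval was computed.

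Log2(FPKM + 1) was fitted with limma 3.58.1 (R 4.3.3), with group as the only term and the trend and robust options on, over the 13016 genes averaging 1 FPKM or more, with two-sided tests and Benjamini-Hochberg adjustment over all of them at 0.05. This scale understates changes of low genes. The fit was tested on simulated data. Partner ratios used exact permutation tests. Per role, library values are given for the member with the largest change, the smallest change and the highest mean, and for members whose groups overlap; those of Cdt1, Gins3, Pold1 and E2f1 were added after their values were seen. In other lists the largest rise and fall, Mki67 and Top2a are named by rule, and the rest after their values were seen. Members and lists were chosen with earlier results of these data known. Gene positions and overlaps are from GENCODE M21 (GRCm38), promoter sequences from RefSeq (GRCm38). Alternatives were 2 pseudocounts, 2 filters, 2 scalings, plain empirical Bayes, a replicate block and leaving out each library.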

Additional observations from a re-analysis of the deposited data

Results flagged for a closer look

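Among 104 groups of 5 libraries (47 genes and 5 ratios in each group), 3 had a library far from the other 4 by Dixon's ratio, and chance gives such a flag in about 1 of 20 groups. In all 3 the library was tumour 2. Rpa1 was at 23.1 FPKM in tumour 2, with the next tumour at 35.8 FPKM, against 11.3 to 15.5 FPKM in adjacent samples. Rfc3 was at 19.3 FPKM in tumour 2, with the next tumour at 27.3 FPKM, against 9.67 to 12.0 FPKM in adjacent samples. The log2 ratio of Ccne1 over Ccne2 was 1.13 in tumour 2, with the next tumour at 1.34, against 0.50 to 0.81 in adjacent samples.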

How the results depend on the processing

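The count of 47 members that rose was 41 to 47 over all alternatives, and 46 to 47 when leaving out each library. It was 41 with a filter at a mean of 5 FPKM, where 41 members were tested, and 46 with no filter, where Orc1 was lost (adjusted p = 0.0595). No member fell except Orc3 with quantile normalization, a count of 1. Reversed values were those of Orc3 with medians subtracted (-0.048) and of Orc1 (-0.091) and Orc3 (-0.17) with quantile normalization; the cause was not tested. The title numbers were not shown to pair the samples: same-numbered tumours and adjacent samples had correlations of deviations of 0.02, 0.32, 0.02, 0.16 and 0.42 over tested genes, and tumours 1, 3 and 4 correlated best with an adjacent sample of another number. With the replicate block all 47 members still rose (median log2 change 1.08), Orc1 with an adjusted p of 0.00362 by limma. For the ratios under the replicate block, an exact permutation test that exchanges signs within 5 like-numbered pairs cannot go below p = 0.0625, and the differences of 0.56 (Cdt1 over Gmnn), 0.68 (Ccne1 over Ccne2) and 0.64 (Pole over Pold1) each had an adjusted p of 0.07812. Pole over Pold1 fell to 0.24 with a pseudocount of 5. Leaving out each library gave 0.51 to 0.59 for Cdt1 over Gmnn, 0.65 to 0.73 for Ccne1 over Ccne2, 0.52 to 0.73 for Pole over Pold1, 0.12 to 0.24 for Rrm2 over Rrm1, and 0.03 to 0.23 for Orc1 over Orc3. The least abundant members in adjacent tissue included Gins3 and Mcm8, with means of 1.39 and 1.45 FPKM there; whether depth limits them was not tested.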
